A study of Mus musculus with 18 samples.

Results

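The mouse β-globin gene cluster and its locus control region on chromosome 7 were read out by NG Capture-C, in which chromatin is cut with DpnII, ligated in place, and enriched for ligation products of chosen viewpoint fragments. Each count is 1 unique interaction between a viewpoint and another DpnII fragment. The members described here are the DpnII fragments with a midpoint between positions 110920000 and 111060000 of chromosome 7 (mm9) and farther than 1 kb from both β-globin viewpoint fragments. They number 338 of the 370783 fragments of chromosome 7 outside those zones, and 14 further fragments of the window fall inside the zones. Of the 338, 307 held at least 1 count in a wild-type (WT) sample and 31 held none. The members were chosen by position alone.

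All 18 libraries came from Ter119+ erythroid cells, taken by magnetic selection from spleens of adult C57BL/6 mice that had been given phenylhydrazine, which destroys red cells and drives new erythroid cells into the spleen. Experiment 1 compared WT with ∆44/48 (labelled D4448), in which the CTCF sites HS+44 and HS+48 were mutated. Experiment 2 compared WT with ∆θ1 (Dtheta1), ∆θ2 (Dtheta2) and ∆θ1/θ2 (Dt1t2), in which the CTCF sites at 1 or both θ-globin genes were mutated. Each of the 6 groups had 3 libraries, stated by the submitters to be biological replicates. All edits were made by CRISPR-Cas9 in the α-globin locus on chromosome 11 and were homozygous, so that chromosome 7 was unedited in every group. How many founder lines stand behind each group is not given in the sources used here, and interaction counts hold no RNA level with which the erythroid label could be checked.

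The β-globin genes encode the β-like chains of haemoglobin and are used in order of development. Hbb-y and Hbb-bh1 are embryonic genes, and the adult genes are transcribed in definitive erythroid cells such as these. The locus control region lies upstream of Hbb-y and is a set of DNase I hypersensitive sites, with enhancer activity, that contact the active globin gene by looping. GATA1, NF-E2 and KLF1 are the erythroid transcription factors best known to bind it.

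The cluster was split into 8 intervals from low to high coordinate, which runs from downstream to upstream because the globin genes lie on the reverse strand. The downstream flank (110920000 to 110961037) held the olfactory receptor genes Olfr68 and Olfr67. The adult interval (110961038 to 110976610) ran from the lower to the upper adult gene, but both gene bodies fall in the zones left out, so that its members (110964282 to 110974901) are the DNA between the genes. The spacer (110976611 to 110987658) held the pseudogene Hbb-bh3. The embryonic interval (110987659 to 111001754) held Hbb-bh2, Hbb-bh1, the pseudogene Hbb-bh0 and Hbb-y. The control region was taken as the next 30 kb (111001755 to 111031754) in a near, a middle and a far piece of 10 kb each, set by distance because the positions of the single hypersensitive sites were not in the files used. The far piece held Olfr66, and the upstream flank reached the end of the window with Olfr64 and Olfr65.

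The names of the adult genes crossed between sources. The viewpoint called Hbb-b1 (110961967 to 110962817, 851 bp) lies on the lower gene, which the GENCODE annotation calls Hbb-b2 and whose promoter matched that of Hbb-bt in RefSeq. The viewpoint called Hbb-b2 (110975976 to 110976456, 481 bp) lies on the upper gene, nearer to the control region, which GENCODE calls Hbb-b1 and RefSeq Hbb-bs. Viewpoints keep the submitters' names below. Over 479 aligned bases the viewpoint fragments were 97.7% identical, with an identical run of 258 bases. Of the fragments on other chromosomes listed under either viewpoint, 38.9% to 58.7% per library were listed under both, so that a molecule may be counted for both viewpoints. A difference between viewpoints is therefore a difference in what is left, and sums over viewpoints hold some molecules more than once.

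The sequences below show the DNA at 4 contacted places of the control region. They come from the mm9 plus strand, with searched motifs in capitals. The following 3 motifs were searched on both strands: AGATAA (bound by GATA factors), TGAGTCA (NF-E2 and AP-1) and CCACACCC (KLF1). Peak 1, the densest fragment of at least 200 bp, is shown because it held none of the 3 motifs. Peak 3 is shown because it is the only 1 of the 5 densest fragments of at least 200 bp with a match, an AGATAA. The other stretches were chosen for their motifs after the values were seen: 1 holds AGATAA next to TGAGTCA, and 1 holds TGACTCA, the reverse complement of TGAGTCA, as a tandem pair, the arrangement known as background from hypersensitive site 2 of the locus control region.
peak 1, chr7:111007929-111008141: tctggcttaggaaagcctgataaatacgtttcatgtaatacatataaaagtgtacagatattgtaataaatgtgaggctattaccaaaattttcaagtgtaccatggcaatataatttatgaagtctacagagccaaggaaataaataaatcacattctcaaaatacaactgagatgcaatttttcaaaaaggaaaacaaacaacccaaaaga
peak 3, chr7:111009076-111009375: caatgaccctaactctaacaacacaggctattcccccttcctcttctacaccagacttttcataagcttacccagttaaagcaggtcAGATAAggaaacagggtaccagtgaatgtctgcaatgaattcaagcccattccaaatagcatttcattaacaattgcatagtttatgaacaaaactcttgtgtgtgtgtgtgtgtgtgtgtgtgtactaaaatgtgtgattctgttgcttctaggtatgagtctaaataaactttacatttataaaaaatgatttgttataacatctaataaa
stretch with AGATAA and TGAGTCA, chr7:111007742-111007868: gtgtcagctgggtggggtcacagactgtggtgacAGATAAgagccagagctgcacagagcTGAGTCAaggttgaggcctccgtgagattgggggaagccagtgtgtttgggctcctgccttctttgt
stretch with a tandem TGACTCA, chr7:111009552-111009674: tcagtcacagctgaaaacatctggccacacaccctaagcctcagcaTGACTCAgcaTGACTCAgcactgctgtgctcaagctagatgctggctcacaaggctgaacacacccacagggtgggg

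A match in a sequence is a description and not a binding site. Of the 68 control-region members, 9 held TGAGTCA (13.2%), 17 held AGATAA (25%) and 0 held CCACACCC. Among the 270 members elsewhere in the window the shares were 5.56%, 23.0% and 1.11%. In tiles of the length of peak 1 across the window the shares were 3.96%, 17.7% and 0.609%, and in tiles of the length of peak 3 they were 5.43%, 24.1% and 0.870%. Per kb, TGAGTCA was densest in the near piece, at 0.6 matches, against 0.1 in the middle and 0.3 in the far piece, but the whole control region, at 0.333, was close to the spacer at 0.362 and the adult interval at 0.321.

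Depth differed widely between libraries. Over all viewpoints together, libraries of experiment 1 held 345162 to 1120609 counts and those of experiment 2 held 8820 to 232346. The lowest 3 were the ∆θ1 libraries, with 8820 to 22935 counts in all and 189 to 460 over the control region from both viewpoints. The ∆θ1 libraries also had the lowest share of β-globin counts on chromosome 7, 51.5% to 58.6%, and the other groups had 58.6% to 74.5%, lowest in ∆44/48 replicate 1. That library also had the most counts per fragment hit on other chromosomes (1.53 to 1.56, against 1.04 to 1.33 elsewhere). Values below are scaled to 100000 counts on chromosome 7 outside the zones, as counts per fragment or as density, counts per kb. The scale is relative to the whole chromosome: members took 46.0% to 50.5% of it in experiment 1 WT, 34.3% to 40.2% in ∆44/48, 39.4% to 48.0% in experiment 2 WT, 27.7% to 33.2% in ∆θ1, 41.1% to 44.5% in ∆θ2 and 45.8% to 50.3% in ∆θ1/θ2.

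The library labelled ∆44/48 replicate 3 stood apart inside the cluster. Among the 261 members with at least 20 counts expected from the mean of the 6 WT libraries, 45 (17.2%) lay below 1/5 of that mean in this library. No other library with at least 80 such members had more than 2, and outside the cluster this library had 3 of 46. At the 45 members its median ratio to WT was 0.021, against 0.60 and 0.64 in ∆44/48 replicates 1 and 2, and at the other 216 members the ratios were 0.90, 0.84 and 0.94. The 45 were spread over all 8 intervals, with 17 in the adult interval, 8 in the downstream flank, 11 in the control region and 3 in the embryonic interval. Between the adult genes, 17 of 33 fragments of the 6.886 kb from 110964282 to 110971167 were affected, and the stretch summed to 283 counts per 100000 in replicate 3, 2286 and 2448 in replicates 1 and 2, and 4019, 3907 and 3810 in WT. Replicates 1 and 2 were thus also below WT at these fragments. At the 45 members the median ratio was 0.85 to 1.07 in the ∆θ2 and ∆θ1/θ2 libraries and 0.50 to 0.76 in the ∆θ1 libraries. At the other 216 members these medians were 0.85 to 0.98 and 0.23 to 0.51. In ∆θ1 the 45 were thus not lower than the rest. The part of this pattern in the ∆44/48 results was measured by leaving the 45 fragments, or the library, out (below). Its cause was not tested.

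**Figure D1:**
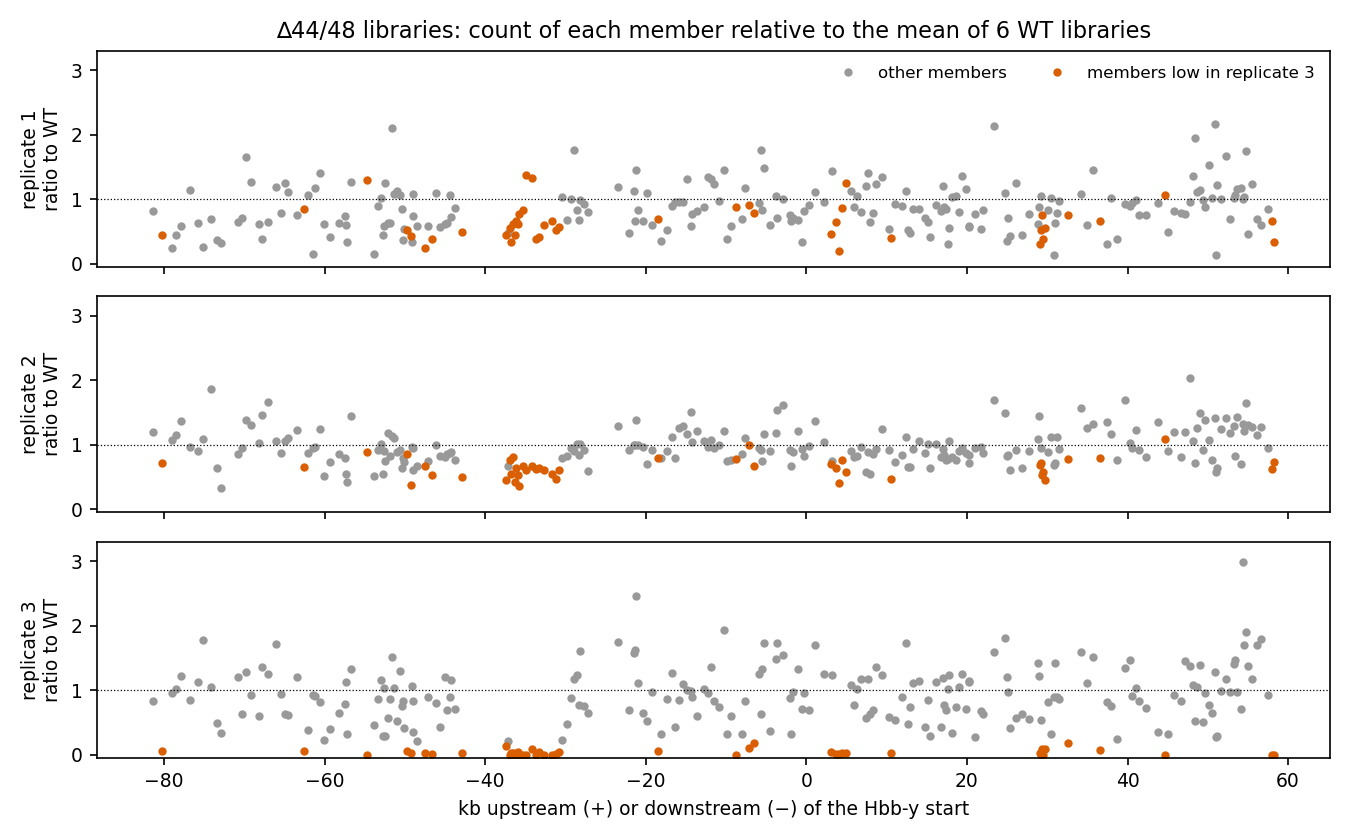
Count of each member in the 3 ∆44/48 libraries relative to the mean of the 6 WT libraries (vertical axis, ratio), against distance from the Hbb-y start in kb (positive is upstream). Each point is 1 of the 261 members with at least 20 counts expected in replicate 3, and orange points are the 45 members below 1/5 of WT in replicate 3, which lie near 0 there and mostly below 1 in replicates 1 and 2.

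In WT erythroid cells the adult genes contacted the control region more densely than the embryonic genes that lie between them and it. In experiment 1 WT, with both viewpoints summed, the density was 908 ± 51 over the adult interval, 433 ± 18 over the spacer, 341 ± 0.51 over the embryonic interval and 555 ± 50 over the control region (counts per kb per 100000, mean ± SD, n = 3). Within the control region it was 553 ± 72 in the near piece, 805 ± 73 in the middle piece and 293 ± 4.1 in the far piece, so that the middle piece was the densest of the 3. The downstream flank had 194.9 ± 7.7 and the upstream flank 160 ± 3.2. The 3 control-region values, 613, 525 and 527, all lay above the 3 embryonic values, 340, 341 and 341. In experiment 2 WT the control region had 606, 531 and 432 and the embryonic interval 328, 346 and 314, again without overlap. The profile was alike in both WT sets, with a Spearman correlation of 0.938 and a Pearson correlation of 0.946 over the 307 members with a count, as a description over fragments that share their libraries' processing and their lengths.

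**Figure D2:**
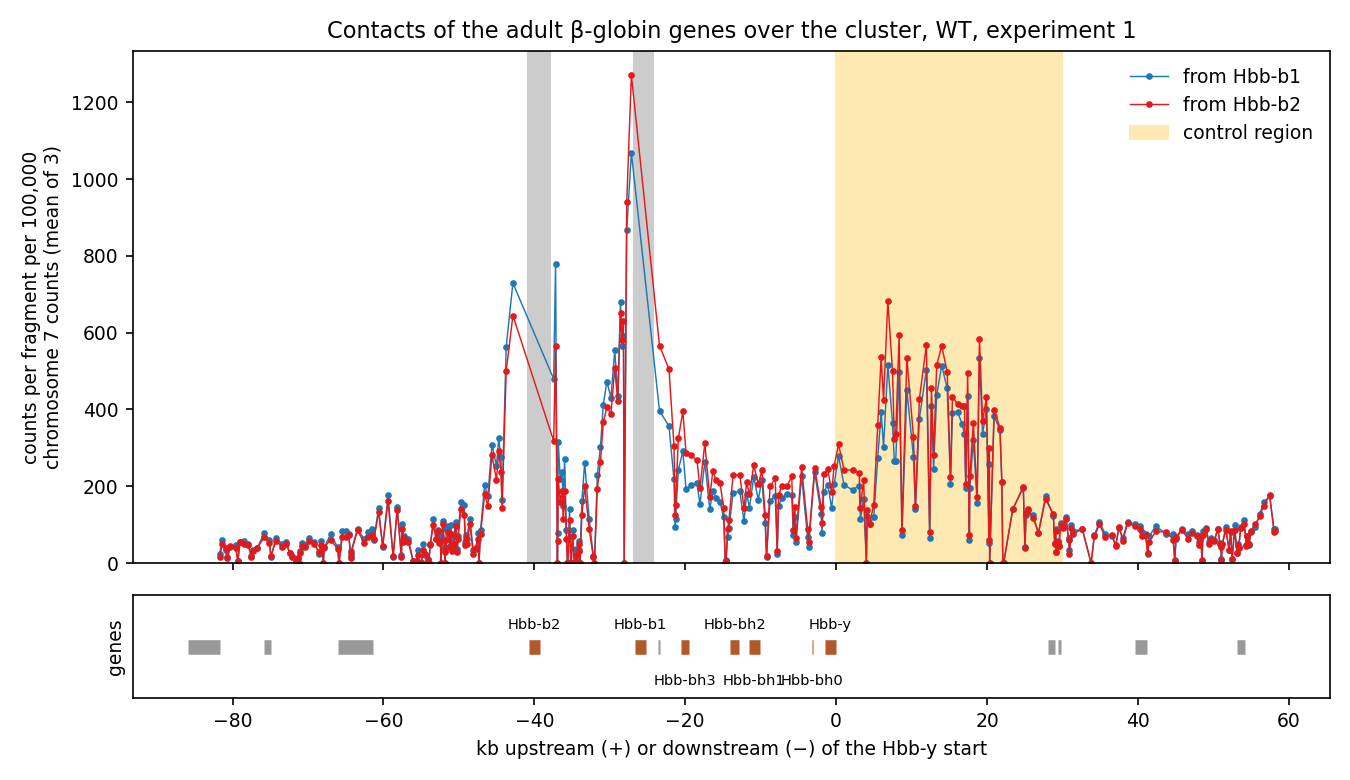
Mean counts per fragment per 100000 chromosome 7 counts (vertical axis, 3 WT samples of experiment 1) from the viewpoints Hbb-b1 and Hbb-b2, against distance from the Hbb-y start in kb, with genes drawn underneath under their GENCODE names. Grey bands are the 1 kb zones left out around the viewpoints, and the shaded control region holds a block of fragments above 200 counts from about 5 to 22 kb upstream of Hbb-y, higher from Hbb-b2 in its near part.

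The densest 5 fragments of at least 200 bp in the control region, all intergenic, were picked on the experiment 1 WT values, which are therefore a description. Peak 1 (111007929 to 111008141, 213 bp, 6.28 kb upstream of the Hbb-y start) had 453, 333 and 315 counts per 100000, a density of 1724. Peak 2 (111018635 to 111018894, 260 bp, 17.0 kb upstream) had 402, 357 and 364, a density of 1439, and peak 3 (111009074 to 111009377, 304 bp, 7.47 kb upstream) had 493, 415 and 401, a density of 1435. Peak 4 (111020513 to 111020977, 465 bp) had 635, 494 and 554 counts, and peak 5 (111018297 to 111018634, 338 bp), which adjoins peak 2, had 443, 355 and 364. The densities of peaks 4 and 5 were 1207 and 1145, and the next fragment outside the 5 (111007508 to 111007928) had 1115. Peaks 1 and 3 thus sat in a near group between 6 and 8 kb upstream of Hbb-y and the other 3 in a group between 16 and 20 kb upstream.

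The samples that did not choose the peaks gave similar levels in experiment 2 WT. Peak 1 had 495, 315 and 296 counts there, peak 2 had 353, 318 and 235, peak 3 had 470, 484 and 296, peak 4 had 538, 551 and 463, and peak 5 had 353, 458 and 220. Peak 4 was the highest of the 5 per fragment in each of the 3 samples. Density and counts per fragment rank fragments differently: over the 64 control-region fragments with a count, the Spearman correlation of length with density was -0.75 and with counts 0.59, as a description. Ranked by counts, the first control-region fragment was a long one between peaks 1 and 3 (111008142 to 111009073, 932 bp), with 693, 568 and 555 counts in experiment 1 WT. The fragment with the tandem TGACTCA (111009552 to 111009747, 196 bp) had 383, 277 and 249 counts, 26th of 68 by counts, with a density of 1546, above that of peaks 2 to 5, and falls outside the 5 peaks by its length. The fragment with AGATAA and TGAGTCA, which is the one just outside the 5 peaks, had 564, 446 and 399 and ranked 9th of 68 by counts. Other fragments under 200 bp reached densities up to 3741.

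The embryonic genes were contacted at lower levels, and no fragment of at least 200 bp was as dense as any of the 5 peaks. The densest fragments of at least 200 bp were an intergenic one between Hbb-bh1 and Hbb-bh0 (110995718 to 110996023, 306 bp), with 211, 206 and 191 counts, an exonic coding one in Hbb-y (111001027 to 111001277, 251 bp), with 174, 166 and 154, and one over the last exon and UTR of Hbb-y (110999930 to 111000285, 356 bp), with 174, 222 and 236. Their densities of 663, 656 and 591 compared with 553 for the next fragment (111001278 to 111001694), and these values too are a description. The fragments at gene starts lay close together. By midpoint, that of Hbb-y belongs to the near piece of the control region and that of Hbb-bh3 to the spacer. The Hbb-y start (111001695 to 111002451) had 312, 259 and 315 counts, Hbb-bh1 (110991653 to 110992180) had 246, 215 and 229, Hbb-bh2 (110988558 to 110989412) had 181, 231 and 217, and the pseudogenes Hbb-bh0 and Hbb-bh3 had 253, 247 and 228 and 222, 293 and 216. By mean the order was Hbb-y (295), Hbb-bh3 (244), Hbb-bh0 (243), Hbb-bh1 (230) and Hbb-bh2 (210), and neighbours in this order overlapped in their samples. The fragments differ in length, from 528 to 1556 bp, so these levels are not per length.

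To set the control region against distance alone, each viewpoint was compared with the stretch at the same distances on its other side. In experiment 1 WT the control region had 515 ± 44 counts per kb from Hbb-b1 against 55.5 ± 1.2 on the other side, and 590 ± 56 from Hbb-b2 against 112.7 ± 1.1 (SD, n = 3). The fold was 8.79 to 9.98 per sample from Hbb-b1 and 4.91 to 5.79 from Hbb-b2. The mean log2 ratio over both viewpoints was 2.81 ± 0.10 over the 6 samples of experiment 1 (7.00-fold) and 2.85 ± 0.40 over the 12 of experiment 2 (7.19-fold), above 0 in all 18 samples (exact two-sided sign-flip permutation p = 0.03125 and 0.000488, the smallest that 6 and 12 samples allow). In ∆θ1, the shallowest group, the means were 288.6 against 37.9 from Hbb-b1 and 294 against 72.8 from Hbb-b2. For Hbb-b1 the other side (110893030 to 110923029) lies mostly beyond the window, among olfactory receptor genes.

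**Figure D3:**
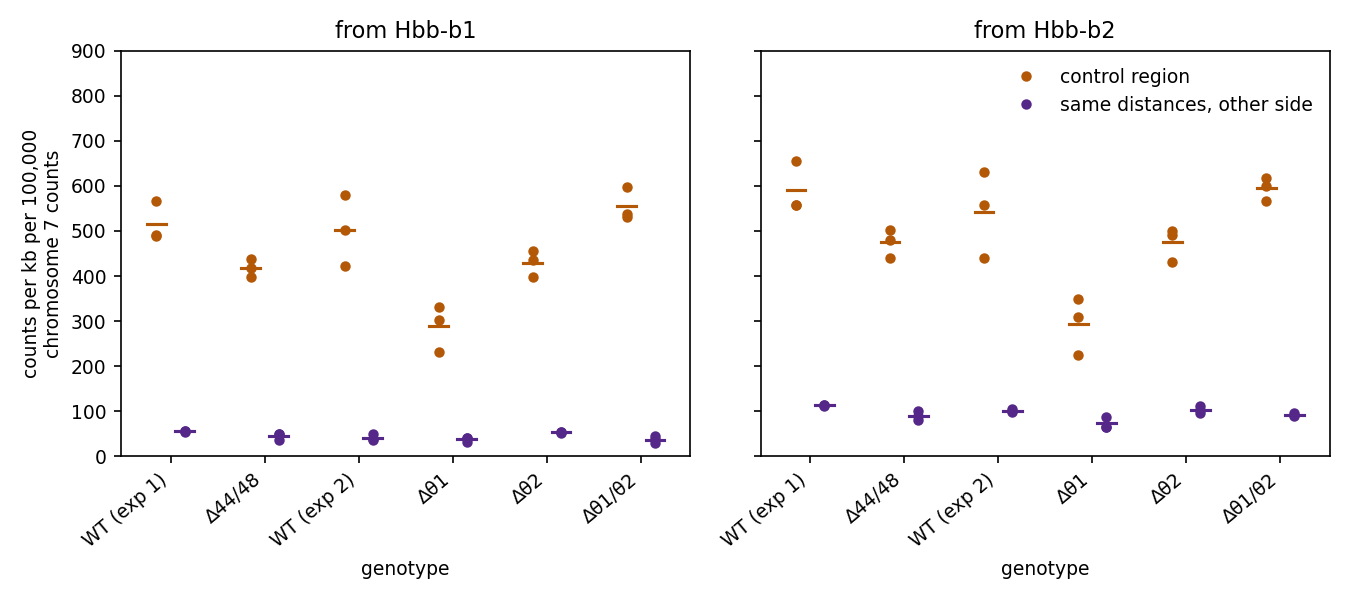
Density in counts per kb per 100000 chromosome 7 counts (vertical axis) over the control region and over the stretch at the same distances on the other side of the viewpoint, for each sample (points) and group mean (bars), from Hbb-b1 (left) and Hbb-b2 (right). In all 18 samples and from both viewpoints the control region lies above the other side.

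The viewpoints differed in how they saw the cluster. The Hbb-b2 viewpoint, on the upper adult gene, had higher densities over the spacer, the embryonic genes and the near and middle pieces of the control region, and the Hbb-b1 viewpoint, on the lower gene, had higher densities over the adult interval and both flanks. In experiment 1 the embryonic genes had 308 ± 1.4 from Hbb-b1 and 369.8 ± 1.6 from Hbb-b2 in WT (SD, n = 3). Over the 6 samples the log2 ratio of Hbb-b1 to Hbb-b2 was -0.29 ± 0.07 there, -0.40 ± 0.06 over the spacer, -0.33 ± 0.07 over the near piece, -0.17 ± 0.07 over the middle piece and -0.19 ± 0.05 over the whole control region. It lay below 0 in 6 of 6 samples in each of these intervals. It was 0.20 ± 0.08 over the downstream flank, 0.13 ± 0.03 over the adult interval and 0.09 ± 0.03 over the upstream flank, above 0 in 6 of 6. Each had the smallest p that 6 samples allow (exact two-sided sign-flip permutation test, p = 0.03125, adjusted p = 0.0352 over 9 intervals).

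The far piece of the control region stood apart from the other 2 pieces. Its log2 ratio was 0.02 ± 0.09 in experiment 1, above 0 in 2 of 6 samples (exact permutation p = 0.688), and 0.06 ± 0.25 in experiment 2, above 0 in 7 of 12 (exact permutation p = 0.617). The difference of its ratio from that of the other pieces was not itself tested. In experiment 2 the other ratios had the same direction. They were -0.27 ± 0.15 over the spacer (exact permutation p = 0.000977), -0.21 ± 0.13 over the embryonic genes (p = 0.000977), -0.17 ± 0.14 over the near piece (p = 0.00488), -0.11 ± 0.08 over the middle piece (p = 0.000488) and -0.09 ± 0.06 over the whole control region (p = 0.00146), each below 0 in at least 11 of 12 samples. The sample above 0 was a ∆θ1 library in each case. In the 12 samples the downstream flank, the adult interval and the upstream flank had ratios of 0.14 ± 0.09, 0.13 ± 0.09 and 0.11 ± 0.09 (exact permutation p = 0.00146, 0.00244 and 0.00293). In ∆44/48 the ratio over the control region differed from that in WT by 0.013 (3 against 3 samples, exact permutation p = 1).

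**Figure D4:**
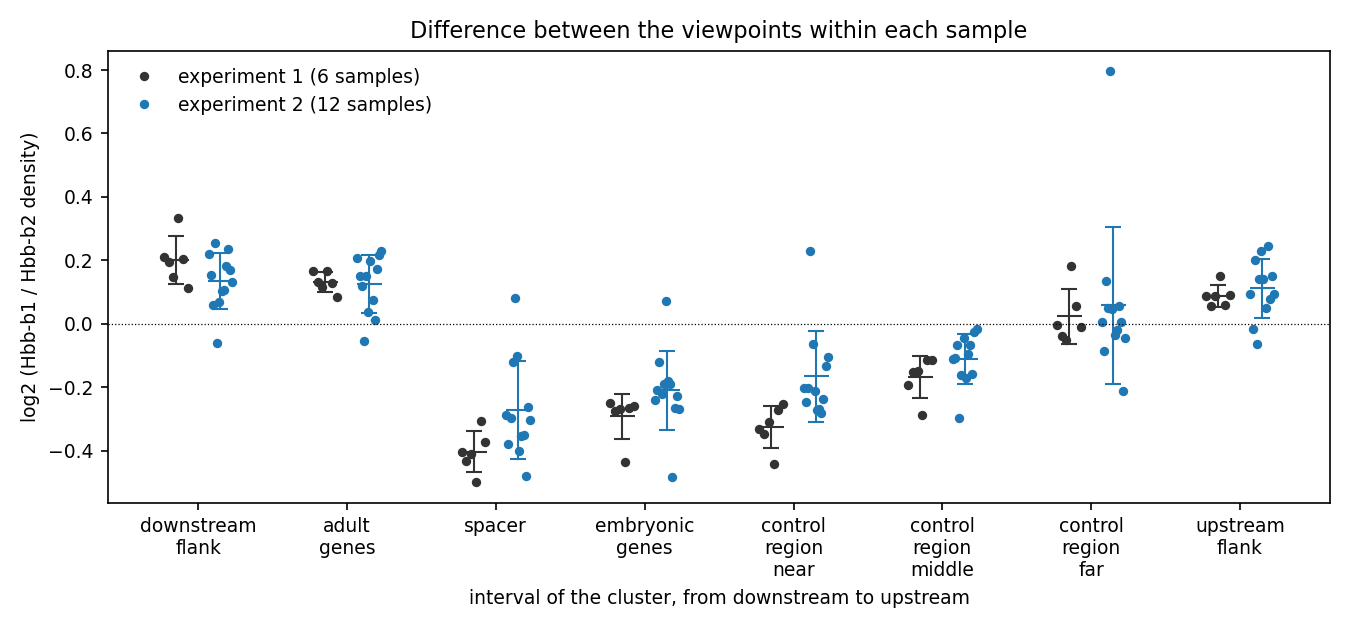
Log2 ratio of the Hbb-b1 to the Hbb-b2 density within each sample (vertical axis) for the 8 intervals from downstream to upstream, with experiment 1 (6 samples) in black and experiment 2 (12 samples) in blue. Bars are mean and SD, and the ratios lie mostly below 0 from the spacer to the middle piece of the control region and mostly above 0 in the flanks and the adult interval.

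Of 304 members tested in experiment 1, 4 were higher from Hbb-b1, against 0.0735% of the 5440 chromosome 7 fragments tested, and 13 were higher from Hbb-b2, against 0.239% (edgeR, sample as a block, adjusted p under 0.01). Every call on the chromosome was thus a member. These 17 calls fell to 0 with WT samples only or a minimum of 1 count, and to 5 with a zone of 6 kb. The 4 lay between the adult genes. The 13 were 5 fragments of the spacer, 6 of the near piece, 1 of the middle piece and 1 of the adult interval, with 0 of 30 embryonic fragments, although 0 of those 30 had a positive log2 ratio and their median was -0.29. The smallest adjusted p values belonged to a 68 bp fragment next to the lower adult gene (110964282 to 110964349), with 479 counts from Hbb-b1 and 318 from Hbb-b2 in WT (log2 ratio 0.56, SE 0.05, adjusted p = 0.000414), to 110977622 to 110979067 next to the upper gene, with 396 and 566 (log2 ratio -0.50, SE 0.05, adjusted p = 0.000451). The long fragment between peaks 1 and 3 (111008142 to 111009073) tied with the latter, with 517 from Hbb-b1 and 683 from Hbb-b2 (log2 ratio -0.41, SE 0.04, adjusted p = 0.000451).

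The peaks followed the same split. From Hbb-b1 and Hbb-b2, peak 1 had 302 and 424 counts in experiment 1 WT, peak 3 had 364 and 499, and peak 2 had 335 and 409, with log2 ratios over the 6 samples of -0.45, -0.44 and -0.28 (edgeR adjusted p = 0.00248, 0.000554 and 0.00797). Peaks 4 and 5, at -0.08 and -0.16, did not pass (edgeR adjusted p = 1 and 0.596). The fragment with the tandem TGACTCA had -0.35 (edgeR adjusted p = 0.00357). In experiment 2, 2 of 303 members tested were higher from Hbb-b1 (0.134% of 1487 fragments), both between the adult genes and both also called in experiment 1, and 0 were higher from Hbb-b2 (0% of 1487), with 28 members at an unadjusted p under 0.05 in that direction. DESeq2 made 9 calls among the members in experiment 2.

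Next, each edit was set against the WT samples of its own experiment, which asks whether edits in the α-globin locus on chromosome 11 went with other contacts at the unedited β-globin cluster. Counts of both viewpoints were summed and tested with edgeR over all intervals, or all fragments, of chromosome 7 at an adjusted p under 0.01. The 3 comparisons of experiment 2 share their WT samples. Because the values are shares of the chromosome 7 counts, the median over all intervals tested is given for each comparison.

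In ∆44/48 the DNA between the adult genes, and the flank downstream of them, was contacted less than in WT. The adult interval had 673, 649 and 451 counts per kb in ∆44/48 and 967, 884 and 874 in WT, and the downstream flank had 138, 157 and 119 against 204, 191 and 190, without overlap in either. The log2 fold changes were -0.62 (SE 0.11, edgeR adjusted p = 3.0e-06) and -0.50 (SE 0.11, edgeR adjusted p = 0.00149), beside a median of 0.31 over the 1320 intervals tested. Thus 2 of 8 intervals were lower, against 0.227% of all tested, and 0 were higher, against 0.53%. The control region had 457, 461 and 423 against 613, 525 and 527, also without overlap, but its log2 fold change of -0.31 (SE 0.10) did not pass (edgeR adjusted p = 0.0999). The embryonic genes had 292, 328 and 282 against 340, 341 and 341, also without overlap (log2 fold change -0.18, SE 0.11, edgeR adjusted p = 0.547). The near, middle and far pieces did not overlap with WT either, the near piece barely (highest ∆44/48 value 506.8, lowest WT value 506.9). The lower values were thus not limited to the intervals called. The results for the control region and the embryonic genes depended on the method. DESeq2 called both lower, and within 1 Mb the embryonic value changed sign (last section).

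These interval calls rest partly on the fragments that were near 0 in ∆44/48 replicate 3. Those 45 were picked for low counts in that library, so that leaving them out raises the ∆44/48 values by construction. With the 45 fragments left out, a setting chosen after seeing the data, 0 of 8 intervals were called, and the adult and downstream values were -0.37 (edgeR adjusted p = 0.01 after rounding, not under the threshold) and -0.37 (edgeR adjusted p = 0.0129). With replicate 3 left out, the adult interval had -0.46 (edgeR adjusted p = 0.00118) and the downstream flank -0.40 (edgeR adjusted p = 0.0138). The downstream call was also lost on leaving out any 1 of the 3 WT libraries or ∆44/48 replicate 1.

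Of 304 members tested in ∆44/48, 20 were lower, against 0.386% of 5440 chromosome 7 fragments, and 0 were higher, against 0.0551%. The median log2 fold change was -0.31 over the members and 0.12 over all fragments tested. The 20 were 11 in the adult interval, 3 in the downstream flank, 1 in the spacer, 3 in the near piece and 1 each in the middle and far pieces, with 0 in the embryonic interval. The 3 with the smallest adjusted p, taking the smaller raw p at a tie, were 110965376 to 110965496 between the adult genes, 110958540 to 110959282 in the downstream flank and 111005790 to 111005939 in the near piece, and all 3 were near 0 in replicate 3. Their counts in ∆44/48 were 93.4, 89.9 and 0, then 387, 387 and 21.6, then 31.1, 64.5 and 1.66, and in WT 217, 216 and 199, then 758, 633 and 662, then 144, 118 and 129. Their log2 fold changes were -1.82, -1.38 and -1.96 (SE 0.32, 0.25 and 0.36, edgeR adjusted p = 4.1e-05, 4.2e-05 and 9.3e-05). The number of members called was 5 without the 45 fragments, 9 without replicate 3, 0 without replicate 1, 3 to 5 without 1 WT library, and 0 in DESeq2, which called 6 of 8 intervals. The density of the adult interval over that of the embryonic genes within each library was 2.31, 1.98 and 1.60 in ∆44/48 and 2.84, 2.59 and 2.56 in WT (exact two-sided permutation p = 0.1, the smallest possible, adjusted p = 0.16 over 8 tests).

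None of the 5 peaks was among the calls in ∆44/48. Peak 1 had 384, 301 and 374 counts there (log2 fold change -0.06, edgeR adjusted p = 0.998), peak 2 had 405, 314 and 404 (-0.0026, 0.998), and peak 3 had 515, 246 and 241 (-0.40, 0.740). The start of Hbb-y had 249, 265 and 188 (log2 fold change -0.34, edgeR adjusted p = 0.940), that of Hbb-bh1 had 96.8, 190 and 79.8 (-0.89, 0.183), and that of Hbb-bh2 had 190, 230 and 221 (0.03, 0.998).

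In ∆θ1 the control region was contacted less than in WT, and the embryonic genes did not pass the test. The control region had 306, 229 and 341 counts per kb in ∆θ1 and 606, 531 and 432 in WT, all 3 below all 3 (log2 fold change -0.84, SE 0.15, edgeR adjusted p = 1.33e-05). The near piece had 285, 191 and 291 against 624, 514 and 383 (log2 fold change -0.98, SE 0.20, edgeR adjusted p = 1.39e-04), and the middle piece had 366, 358 and 461 against 869, 796 and 575 (-0.93, SE 0.18, edgeR adjusted p = 6.85e-05). These 2 of 8 intervals were lower, against 0.493% of the 608 tested, and 0 were higher, against 0.164%. The median log2 fold change over the 608 was 0.30. The 608 also hold the whole control region, and the 0.493% is made up of it and these 2 pieces. The far piece had 262, 131 and 264 against 309, 270 and 331 (-0.46, SE 0.22, edgeR adjusted p = 0.503). The embryonic genes had 319, 300 and 362 against 328, 346 and 314 (-0.02, SE 0.19, edgeR adjusted p = 0.983). The embryonic value depended on the method. It lay above WT with counts scaled within 1 Mb and further below WT in DESeq2 (last section). The adult interval had 571, 503 and 657 against 994, 906 and 764 (-0.63, edgeR adjusted p = 0.0194), and the downstream flank had 118, 108 and 125 against 180, 188 and 183 (-0.66, edgeR adjusted p = 0.0208). The far piece, the adult interval and the downstream flank did not overlap with WT either, so that the lower values were not limited to the intervals called.

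A ratio within each library does not depend on the chromosome 7 total. The density of the control region over that of the embryonic genes was 0.96, 0.76 and 0.94 in ∆θ1 against 1.85, 1.53 and 1.37 in experiment 2 WT, without overlap (exact two-sided permutation p = 0.1, the smallest that 3 against 3 allow, adjusted p = 0.16 over 8 tests). The density of the adult interval over that of the embryonic genes was 1.79, 1.68 and 1.81 against 3.03, 2.615 and 2.43, with the same p values in the exact test. The ∆θ1 libraries were the shallowest, had the lowest share of counts on chromosome 7 and the lowest share of those in the cluster (27.7% to 33.2%), and the part of these in the result was not tested. The control-region call was lost, with the value between -0.72 and -0.88, on leaving out WT replicate 1, WT replicate 2 or ∆θ1 replicate 1. With counts scaled within 1 Mb of the cluster, the near and middle pieces had -0.52 and -0.46 (edgeR adjusted p = 0.0351 and 0.0167).

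Of 288 members tested in ∆θ1, 2 were lower, against 0.377% of 531 fragments tested, and 0 were higher, against 0%. Both lie between the adult genes, next to the upper one. The fragment 110973665 to 110974330 had 79.8, 109 and 0 counts in ∆θ1 against 693, 816 and 341 in WT (log2 fold change -3.15, SE 0.59, edgeR adjusted p = 5.71e-05), and 110974331 to 110974901 had 319, 618 and 413 against 1541, 1255 and 979 (-1.52, SE 0.34, edgeR adjusted p = 0.00168). The first rests on 7 counts in all in ∆θ1. Both lie within 6 kb of the Hbb-b2 viewpoint, so that an exclusion zone of 6 kb removes them. The median log2 fold change was -0.71 over the members and -0.54 over all fragments tested. Peaks 1, 2 and 3 had 120, 72.6 and 183, 120, 109 and 275, and 160, 72.6 and 138 counts in ∆θ1, on 12, 15 and 13 counts in all, with log2 fold changes of -1.59, -0.95 and -1.70 (edgeR adjusted p = 0.198, 0.566 and 0.141). Peak 4 had 299, 509 and 596 against 538, 551 and 463 (log2 fold change -0.21, edgeR adjusted p = 0.889).

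In ∆θ2, 0 of 8 intervals and 0 of 301 members passed in either direction, against 0% of 871 intervals and 0% of 971 fragments (edgeR), with 1 interval and 11 members at an unadjusted p under 0.05, and DESeq2 also called 0 intervals and 0 members. The median log2 fold change over all intervals tested was 0.097. The control region had 464, 479 and 415 counts per kb, within the WT range of 432 to 606 but for the lowest (log2 fold change -0.21, SE 0.11, edgeR adjusted p = 0.717). The embryonic genes had 352, 398 and 340 (log2 fold change 0.14, SE 0.14, edgeR adjusted p = 0.975). The ratio of the control region to the embryonic genes was 1.32, 1.20 and 1.22, below the WT values of 1.85, 1.53 and 1.37 without overlap (exact two-sided permutation p = 0.1, the smallest possible, adjusted p = 0.16 over 8 tests). The start of Hbb-y had 239, 290 and 396 counts and peak 3 had 175, 363 and 198, against 371, 239 and 137 and 470, 484 and 296 in WT.

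In ∆θ1/θ2 both θ sites were mutated. The paper gives a deletion at θ1 in this line and a templated mutation there in ∆θ1. Here 0 of 8 intervals and 0 of 293 members passed, against 0% of 730 intervals and 0% of 736 fragments in either direction (edgeR). At an unadjusted edgeR p under 0.05 there were 1 interval and 17 members. DESeq2 also called 0 intervals and 0 members. The median log2 fold change over all intervals tested was -0.077. The control region had 570, 550 and 607 counts per kb (log2 fold change 0.14, SE 0.11, edgeR adjusted p = 0.996), the embryonic genes 380, 338 and 345 (0.11, SE 0.15, edgeR adjusted p = 0.996) and the adult interval 1047, 991 and 1153, against 994, 906 and 764 in WT (0.26, SE 0.12, unadjusted p = 0.0355 in edgeR). The ratio of the control region to the embryonic genes was 1.498, 1.62 and 1.76 (exact two-sided permutation p = 0.8). The difference between the ∆θ1 and ∆θ1/θ2 effects was not tested.

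**Figure D5:**
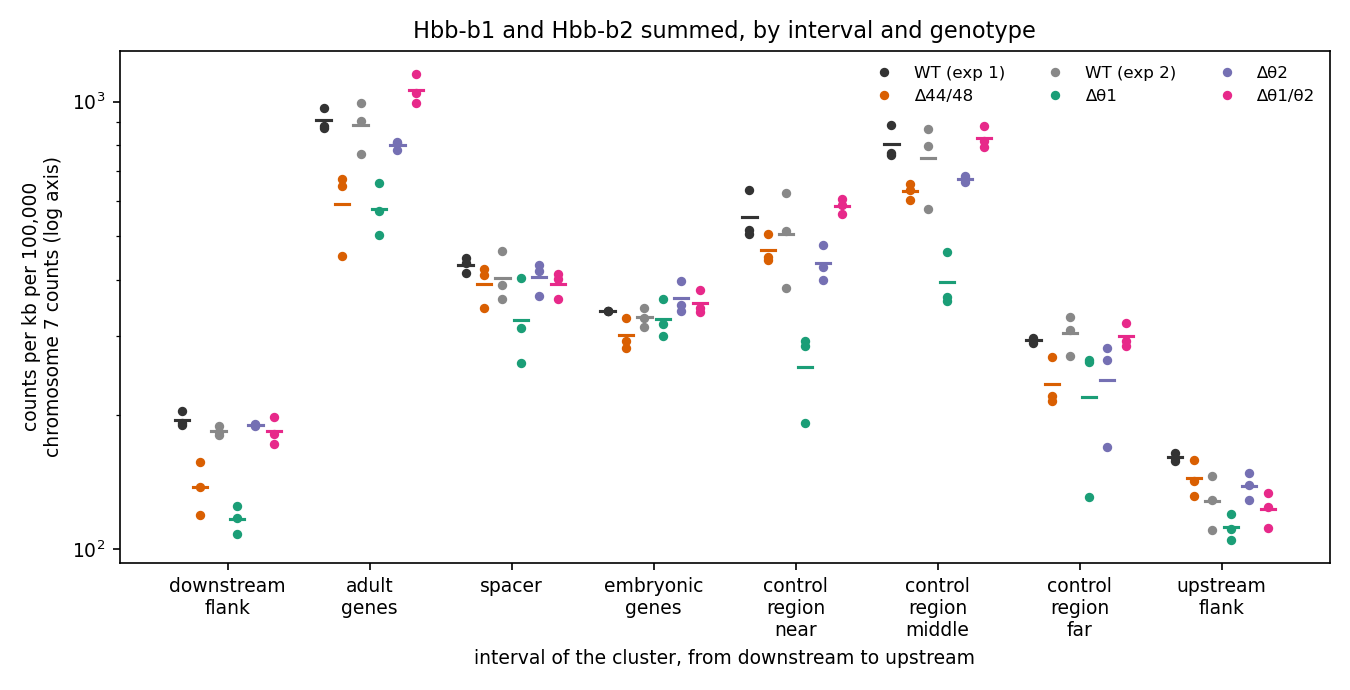
Density in counts per kb per 100000 chromosome 7 counts (vertical axis, log scale), with both viewpoints summed, for the 8 intervals from downstream to upstream in all 18 samples (points, with bars at group means). The ∆θ1 samples lie below experiment 2 WT in all 3 pieces of the control region, the adult interval and the downstream flank. The ∆44/48 samples lie below experiment 1 WT in the same intervals, barely in the near piece, and in the embryonic genes. The embryonic genes lie within 282 to 398 in all samples.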

How the data were processed

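NG Capture-C was read in 18 Ter119+ erythroid libraries. Before deposit, the authors removed adapters (Trim Galore), joined overlapping mates (FLASH), split the joined reads at DpnII sites, mapped the pieces to mm9 (Bowtie) and discarded PCR duplicates. The deposited values are raw interaction counts listed by DpnII fragment for every viewpoint, and their table that combines both β-globin viewpoints equals their sum and was left out. The design text describes the 3 samples of a group as biological triplicates. All 18 samples had a group, and all 18 pairs of replicates differed beyond sampling noise (chi-square per degree of freedom 1.65 to 12.5).

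All 295168 listings matched the mm9 DpnII digest. Counts were scaled to 100000 counts of the same viewpoint on chromosome 7 outside 1 kb of both viewpoint fragments. Chromosome 7 was cut into the cluster intervals and bins of 100 kb elsewhere, and features with at least 10 counts over the samples compared were tested with edgeR 4.0.16 (quasi-likelihood, library size the chromosome 7 counts outside the zones, R 4.3.3), Benjamini-Hochberg adjusted over all features tested, at 0.01. The viewpoints were compared with the sample as a block, or by an exact two-sided sign-flip permutation test of within-sample ratios. DESeq2 1.42.0, the study's tool, was an alternative, with gene-wise dispersions for the viewpoint comparison of experiment 2, where its dispersion trend could not be fitted. Other alternatives were TMM factors, counts within 1 Mb, a zone of 6 kb, each viewpoint alone, minima of 1 and 30 counts, a threshold of 0.05, WT samples only, all experiment 2 groups in 1 fit, intervals without their highest fragment, a replicate block, and each replicate left out. The fits were tested on simulated data. Tables were built in Python 3.11.15 with pandas 2.3.3 and numpy 2.4.6, permutation tests were written with scipy 1.17.1, and plots were drawn in matplotlib 3.10.9.

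Named fragments were the 5 densest of the control region and the 3 densest of the embryonic interval (at least 200 bp, experiment 1 WT), those at globin gene starts, and up to 3 with the smallest adjusted p per comparison. The members, intervals, motifs and rules were chosen with earlier results of these data known.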

Additional observations from a re-analysis of the deposited data

Results flagged for a closer look

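Among the 6 libraries of experiment 1, ∆44/48 replicate 1 lay far from the others in the log2 ratio of Hbb-b1 to Hbb-b2 over the embryonic genes, at -0.4354 against -0.274 to -0.249, and over the upstream flank, at 0.1509 against 0.055 to 0.090. Such a gap was looked for in 10 sets of 6 values, and chance gives about 1 in 20.

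The preference for the Hbb-b2 viewpoint was stronger in experiment 1 than in experiment 2 over the near piece of the control region, where the mean log2 ratios of Hbb-b1 to Hbb-b2 were -0.33 and -0.17, a difference of -0.1595 (6 against 12 samples, exact permutation p = 0.00097, adjusted p = 0.0097 over 10 measures). Over the whole control region the means were -0.19 and -0.09, a difference of -0.09538 (exact permutation p = 0.0030, adjusted p = 0.0151). In WT alone the near piece had -0.331, -0.346 and -0.310 in experiment 1 against -0.203, -0.246 and -0.202 in experiment 2, and the whole control region -0.210, -0.193 and -0.183 against -0.123, -0.150 and -0.056, without overlap in either. The experiments also differ in depth, in viewpoints captured (5 against 2 on chromosome 11) and in counts near the viewpoints. From Hbb-b1, experiment 1 WT replicate 1 had 92715 counts on chromosome 7, of which 57898 lay outside the zones. Experiment 2 WT replicate 1 had 7975 and 7800. None of these can be told apart from the experiment here.

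Viewpoints on other chromosomes also listed the cluster. In experiment 1 WT, the 5 viewpoints on chromosome 11 gave 196 counts there, a density 6.203 times that of the rest of chromosome 7 (95% interval 5.37 to 7.14, counting error only, replicates 5.32 to 7.32). The viewpoint on chromosome 14 gave 38 counts, 7.901 times the rest (5.59 to 10.8, replicates 5.45 to 11.3). In ∆44/48 the ratios were 3.37 (71 counts) and 4.02 (21 counts). The difference between these groups was not tested. The chromosome 11 viewpoints include Hba-1 and Hba-2, on α-globin genes that the paper calls almost identical in sequence. A molecule may be counted for both, and the counting-error interval would then be too narrow.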

How the results depend on the processing

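Of 420 values under alternatives, 325 kept their direction and side of the threshold (counts: within 1.5 times), 25 lost their call, 2 gained one, 6 changed sign and 62 counts moved. The control region against the opposite side stayed positive in all, at 2.78 to 3.01 (log2), and kept its call wherever enough samples were left. With WT samples only, or in experiment 1 without 1 library, too few samples were left for a call. Such ratios were counted as kept when the mean moved by less than the SD. The viewpoint ratios over the control region and embryonic genes kept their sign. The cause of the changes below was not tested.

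In ∆44/48, DESeq2 gave -0.664 for the control region and -0.523 for the embryonic genes, both called, and within 1 Mb the embryonic genes had +0.0888. In ∆θ1 the embryonic genes had +0.440 within 1 Mb, +0.0148 from Hbb-b1 alone and -0.0905 to 0.0398 without 1 library each. DESeq2 gave -1.26 for the ∆θ1 control region and -0.42 for the embryonic genes. The ∆θ1 control region had -0.964 to -0.699 without 1 library each. Replicate numbers did not pair the samples (correlations -0.065 to 0.041). With a replicate block the ∆θ1 control region had -0.850 (edgeR adjusted p = 0.041) and 0 intervals were called.

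The 2 intervals called in ∆44/48 became 6 in DESeq2, 1 within 1 Mb, with a 6 kb zone or from Hbb-b1 alone, 0 without the 45 fragments (added after seeing the data) and 1 to 2 without 1 library. The 20 members became 0 in DESeq2, from Hbb-b1 alone or at 30 counts, 6 within 1 Mb, 10 from Hbb-b2 alone, 5 at 1 count or without the 45, and 0 to 20 without 1 library. The 2 ∆θ1 intervals became 4 at 0.05, in DESeq2 or with all groups, 5 with TMM, 0 within 1 Mb, 1 from Hbb-b1 alone and 0 to 3 without 1 library. The 2 ∆θ1 members became 7 at 0.05, 6 with TMM, 8 with all groups, 0 with a 6 kb zone or at 1 count, 1 from Hbb-b2 alone and 0 to 3 without 1 library. The 17 viewpoint calls of experiment 1 became 35 at 0.05, 32 in DESeq2, 30 with TMM, 5 with a 6 kb zone, 43 at 30 counts, 0 at 1 count or in WT only, and 11 to 16 without 1 library. The 2 of experiment 2 became 6, 9 and 8 at 0.05, in DESeq2 and at 30 counts, 0 with TMM, a 6 kb zone, WT only or 1 count, and 0 to 2 without 1 library. The ∆θ1 comparison rests on libraries of 8820 to 22935 counts.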
